A study of Homo sapiens with 12 samples.

Results

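Palbociclib resistance changed A375 and CHL1 melanoma cells differently, and the measurements here are of that difference, gene by gene. The quantity is an interaction: the log2 change from parental to resistant A375 minus the log2 change from parental to resistant CHL1. It needs all 4 groups, so all 12 of the 12 libraries of the study were used, 3 in each group. The groups were A375 and CHL1 control cells, grown in supplemented RPMI medium, and their resistant derivatives, labelled A375AR991 and CHL1AR991. The derivatives were selected in rising palbociclib for 7 months (A375) or 3 months (CHL1), kept at 4 µM, and held for 72 h without drug before RNA was taken. A single derivative of each line was sequenced, the labels do not say whether it is a clone, and line and length of selection cannot be told apart. Nor do the labels say that replicates were separate cultures, and p-values then reflect no more than how much these particular libraries vary, possibly for technical reasons. Of the 29735 genes listed for both lines, 19241 had enough reads to be tested.

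Palbociclib inhibits CDK4 and CDK6, the kinases that pair with D-type cyclins and phosphorylate the retinoblastoma protein RB1. Active RB1 holds back E2F factors and with them S-phase entry, and cyclin E with CDK2 can phosphorylate RB1 as well. The CIP/KIP inhibitors, CDKN1A (p21) among them, brake these kinases, and CDKN1A is also a direct target of p53, which MDM2 restrains by marking it for degradation. Melanoma cells further switch between a pigmented state under MITF and SOX10 and dedifferentiated or neural crest-like states, the latter marked by the receptor NGFR.

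Library totals ran from 25398920 to 29812686 counts, and the mitochondrially encoded share from 1.69% to 3.46%. The first principal component (89.7% of the variance) separated the lines, the second (4.5%) the A375 states and the third (1.56%) the CHL1 states. The melanoma lineage factors SOX10 (mean 296 to 1052 CPM over the 4 groups) and PAX3 (12.4 to 42.6 CPM) were present in every group. The pigment antigens MLANA and PMEL were at or below 1.07 CPM in every group mean, so of the melanoma markers the lineage factors were present and these antigens nearly absent. CPM here is a count scaled to library size by the TMM method, and changes are on the log2 scale. Values after ± are approximate standard errors from the fit over 3 libraries per group, the log2 value over the root of F. Where a group holds few counts they can be smaller than counting error alone, so they overstate the precision of such changes.

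The change with resistance differed between the lines for 4536 of the 19241 genes tested (23.6%), at an adjusted p below 0.05 in edgeR's quasi-likelihood test. The difference was positive, meaning a higher change in A375 than in CHL1, for 2251 genes (11.7%) and negative for 2285 (11.9%). It reached 2-fold for 1317 genes (6.84%), 750 positive (3.9%) and 567 negative (2.95%). Among the 13690 genes with at least 1 CPM in some group of each line, 4021 were called (29.4%) and 813 at 2-fold (5.94%). In the other 5551 genes, which were under 1 CPM in every group of 1 line, 515 were called (9.28%). In bulk RNA, fewer cells with a transcript and less of it per cell cannot be told apart for any gene.

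Most of the calls were genes with a change called in A375 and not in CHL1. Such genes numbered 2810, 61.9% of the calls and 14.6% of all genes tested, with a median absolute interaction of 0.69 on the log2 scale. Among them the values of both lines were above 0 in 379 and below 0 in 483. A change that was not called in CHL1 need not be absent. A further 796 (17.5% of the calls, 4.14% of genes tested) were called in CHL1 and not in A375, with a median of 0.44. In 475 genes (10.5% of the calls, 2.47% of genes tested) both lines changed, in opposite directions, and these had the highest median, 0.86. Both lines changed in the same direction by unequal amounts in 127 genes (2.8% of the calls, 0.66% of genes tested), 51 up in both and 76 down in both. The remaining 328 (7.23% of the calls, 1.7% of genes tested) were called in neither line alone. A375 had the larger absolute change in 3272 of the 4536 and CHL1 in 1264. Within lines, 5994 genes (31.2%) were called in A375 and 2551 (13.3%) in CHL1. The CHL1 count fell to 1692 without parental CHL1 replicate 1 and to 1644 without resistant CHL1 replicate 2, and the opposite-direction count to between 303 and 308 without either of these or parental CHL1 replicate 2. Across all genes tested the changes of the lines had a Pearson correlation of 0.00799, given as a description, since genes are not independent replicates.

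**Figure D1:**
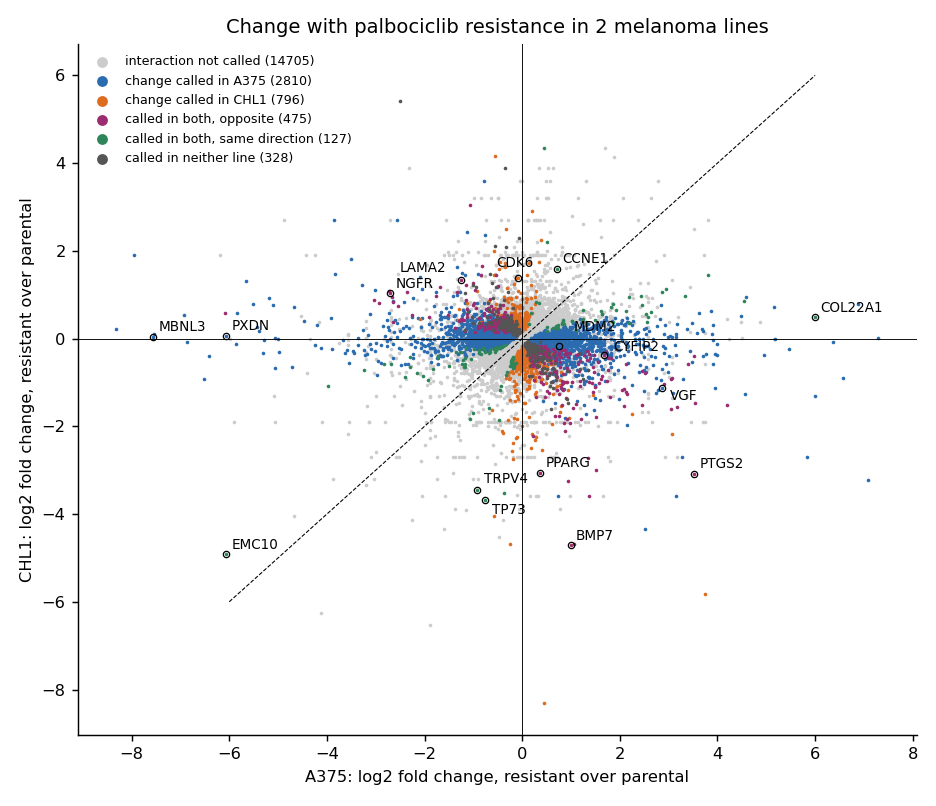
Log2 fold change of resistant over parental cells in A375 (horizontal axis) against CHL1 (vertical axis), 1 point for each of the 19241 genes tested, coloured by which line's change was called. Equal changes lie on the dashed diagonal. Most coloured points lie along the horizontal axis (2810 genes called in A375 and not in CHL1), and PTGS2, BMP7 and NGFR lie in the corners of opposite change. Rows of grey points at the same height are genes with few counts in CHL1.

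Among targets of p53 the called differences all had one direction: of 38 tested members of a list of 39, the change was higher in A375 than in CHL1 for 24 and lower for 0, with 14 not called. That is 63.2% of the members, against 11.7% of all genes tested in that direction. The median interaction was 0.46, against a value close to 0 over all genes tested, and it was made of a median change of 0.40 in A375 and one close to 0 in CHL1. Within A375 24 members rose (14.9% of all genes tested did) and 0 fell, and within CHL1 0 rose (5.55% of all genes tested did) and 6 fell (7.71% did). The list was known from earlier work on these data to rise in A375, so its direction is not independent evidence.

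The promoters of 31 tested members were matched in RefSeq (GRCh38.p14). In each, the 250 bases before the start were searched for the p53 half-site consensus, which reads the same on both strands. They were also searched for the full site, a pair of half-sites that adjoin or have a short spacer between them. At least 1 half-site was found in 3 of the 21 matched members with a higher change in A375 (14.3%), AEN, FDXR and RPS27L, and in 1 of the 10 not called (10%), PLK2. Half-sites were found in 4.7% of the promoters of all tested genes and in 5.53% of the whole table. A full site was found in 0 of the 31 and in 0.04% of the promoters of all tested genes. Bases further upstream or after the start were not searched, so sites there would be missed. The 4 upstream sequences are shown because they let the elements of called members be read beside that of an uncalled one; capitals mark the half-site. They lie at chr15:88621090-88621339 (plus strand) for AEN, chr17:74872995-74873244 (minus strand) for FDXR, chr15:63157478-63157727 (minus strand) for RPS27L and chr5:58460087-58460336 (minus strand) for PLK2, each printed 5′ to 3′ on the gene's strand.
AEN: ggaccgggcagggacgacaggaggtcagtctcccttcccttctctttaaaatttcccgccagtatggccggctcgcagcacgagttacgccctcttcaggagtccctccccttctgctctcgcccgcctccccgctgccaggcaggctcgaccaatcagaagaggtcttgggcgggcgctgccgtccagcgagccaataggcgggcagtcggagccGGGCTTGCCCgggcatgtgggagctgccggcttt
FDXR: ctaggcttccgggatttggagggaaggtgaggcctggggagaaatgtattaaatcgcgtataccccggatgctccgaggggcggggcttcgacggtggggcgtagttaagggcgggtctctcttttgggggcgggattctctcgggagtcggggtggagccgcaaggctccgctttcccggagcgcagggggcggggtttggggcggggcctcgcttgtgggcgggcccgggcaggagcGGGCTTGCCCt
RPS27L: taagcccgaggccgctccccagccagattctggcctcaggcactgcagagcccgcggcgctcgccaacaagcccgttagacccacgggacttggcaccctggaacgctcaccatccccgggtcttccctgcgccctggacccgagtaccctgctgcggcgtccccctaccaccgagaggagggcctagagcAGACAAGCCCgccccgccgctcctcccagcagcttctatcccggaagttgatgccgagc
PLK2: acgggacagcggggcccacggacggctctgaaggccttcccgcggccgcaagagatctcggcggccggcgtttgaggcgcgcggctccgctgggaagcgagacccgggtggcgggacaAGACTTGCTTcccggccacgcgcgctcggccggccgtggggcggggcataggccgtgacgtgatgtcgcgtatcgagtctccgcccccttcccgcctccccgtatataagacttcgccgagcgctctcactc

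AEN and FDXR carry the same 10 letters in capitals, 34 and 11 bases before their starts, and those of RPS27L and PLK2 differ from them and from each other. AEN, an apoptosis-enhancing nuclease, had 140.1, 161 and 142 CPM in parental and 265, 268 and 264 CPM in resistant A375, and 65.6, 47.98 and 53.7 CPM in parental and 66.1, 61.05 and 54.6 CPM in resistant CHL1. FDXR, the mitochondrial ferredoxin reductase, had 23.1, 25.3 and 24.96 CPM in parental and 32.7, 41.1 and 33.2 CPM in resistant A375, and 11.2, 10.2 and 11.5 CPM in parental and 11.5, 11.6 and 10.7 CPM in resistant CHL1. RPS27L, a ribosomal protein paralogue, had 89.1, 109 and 101 CPM in parental and 113, 144 and 133 CPM in resistant A375, and 27.9, 29.1 and 26.4 CPM in parental and 27.8, 24.1 and 26.2 CPM in resistant CHL1. For each of these genes all resistant A375 libraries lay above all parental ones, while the CHL1 groups overlapped. Their interactions were 0.73 ± 0.14 (adjusted p = 0.0013), 0.51 ± 0.13 (0.012) and 0.48 ± 0.13 (0.016). PLK2, a polo-like kinase, had 207, 207 and 222 CPM in parental and 196, 197 and 203 CPM in resistant A375, and 8.88, 6.198 and 6.07 CPM in parental and 9.495, 6.99 and 6.497 CPM in resistant CHL1, and its interaction was -0.20 ± 0.18 (adjusted p = 0.48). A match in these letters is a description, not a bound site.

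The largest interaction among the p53 targets belonged to CYFIP2, a subunit of the actin-regulating WAVE complex. CYFIP2 had 19.9, 18.6 and 16.5 CPM in parental and 55.8, 64.7 and 55.6 CPM in resistant A375, and 429.8, 422 and 472 CPM in parental and 347, 339 and 343 CPM in resistant CHL1. It rose in every resistant A375 library and fell in every resistant CHL1 library without overlap, 1.68 ± 0.08 and -0.36 ± 0.07 on the log2 scale, an interaction of 2.04 ± 0.10 (adjusted p = 1.6e-08). The pro-apoptotic effector BAX had 93.7, 111 and 109.9 CPM in parental and 195, 217 and 201 CPM in resistant A375, and 38.7, 40.8 and 44.6 CPM in parental and 29.9, 35.2 and 33.03 CPM in resistant CHL1. Its groups did not overlap in either line and its interaction was 1.30 ± 0.11 (adjusted p = 2.1e-06), while the 20 expressed genes nearest to BAX on chromosome 19 had a median interaction of 0.44. MDM2, the ubiquitin ligase that restrains p53, had 123, 127 and 125 CPM in parental and 190.3, 232 and 209 CPM in resistant A375, and 96.2, 94.04 and 87.9 CPM in parental and 86.9, 80.1 and 81.1 CPM in resistant CHL1, an interaction of 0.92 ± 0.09 (adjusted p = 7.5e-06). Its groups did not overlap in either line, though the CHL1 change was not called. MDM2 overlaps a tested gene on the other strand and the kit does not mark strand, so their reads cannot be told apart, as for 69 of the 241 genes examined singly, CYFIP2, RB1, ITGB4 and TP73 among them. CDKN1A had 151, 141 and 153 CPM in parental and 221, 252 and 269 CPM in resistant A375, and 27.3, 22.8 and 24.4 CPM in parental and 23.5, 28.9 and 28.7 CPM in resistant CHL1. It rose without overlap in A375 while the CHL1 groups overlapped, an interaction of 0.61 ± 0.13 (adjusted p = 0.0026) beside a neighbour median of -0.02.

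The opposite changes in the list were those of CYFIP2, BAX, ZMAT3, SESN1 and XPC, all up in A375 and down in CHL1, a pattern that 1.38% of all genes tested had. ZMAT3, an RNA-binding protein, changed by 0.86 in A375 and -0.26 in CHL1, SESN1, a sestrin that restrains mTORC1, by 0.63 in A375 and -0.36 in CHL1, and XPC, a damage sensor of nucleotide excision repair, by 0.32 in A375 and -0.45 in CHL1. ZMAT3 and XPC lie on chromosome 3, where neighbouring genes had median interactions of 0.28 and 0.26. Among members called in A375 and not in CHL1 were BBC3 (PUMA, a pro-apoptotic BH3 protein) with an interaction of 1.54 ± 0.25, TP53I11 with 1.17 ± 0.21, the cyclin CCNG1 with 0.53 ± 0.09 and RRM2B, the p53-inducible ribonucleotide reductase subunit, with 0.57 ± 0.09. The death receptor FAS had the second largest value, 1.84 ± 0.61 (adjusted p = 0.042), but only 22 and 8 counts in parental and resistant CHL1, a ratio of 2.73, 95% interval 1.17 to 7.08 for counting error alone. Its call was lost without parental A375 replicate 1, resistant A375 replicate 3, or replicate 1 or 3 of either CHL1 group (adjusted p from 0.0511 to 0.134). Uncalled members included PERP, a desmosomal p53 target (interaction 0.02 ± 0.09, adjusted p = 0.9), and the stress cytokine GDF15, whose CHL1 level was 4 and 11 counts. Long stretches of genes shifted together on chromosomes 3, 10, 13, 19 and X. Outside these 5 the list had 19 of 31 members higher and 0 lower, with a median of 0.43. Of all 9161 protein-coding genes outside them with at least 1 CPM in each line, 1083 were higher and 1271 lower. Shifts were not limited to these 5 chromosomes.

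**Figure D2:**
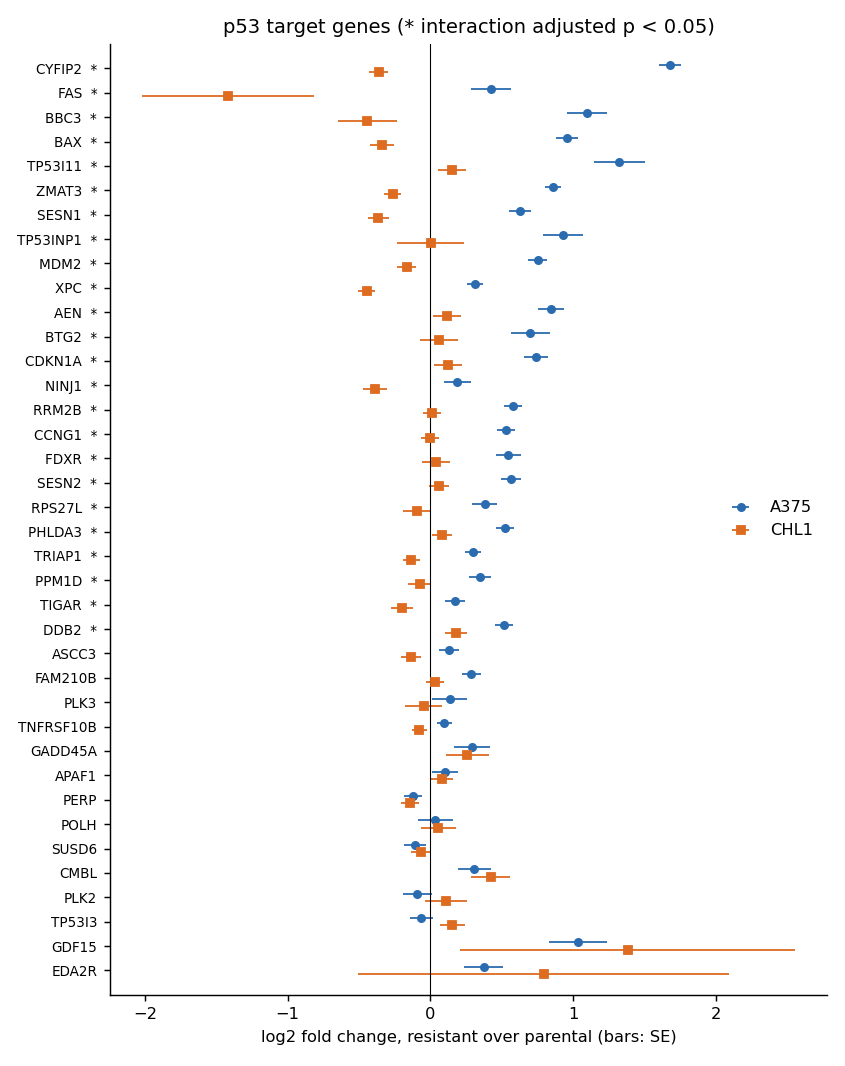
Log2 fold change of resistant over parental cells for the 38 tested p53 targets in A375 (blue circles) and CHL1 (orange squares), bars showing SE (3 libraries per group), sorted by the interaction; an asterisk marks an adjusted p below 0.05. In the 24 genes with an asterisk the A375 value lies to the right of the CHL1 value, and CYFIP2 has the widest gap among well-counted genes.

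In the CDK4/6-RB axis 3 of 24 tested members had a higher change in A375 and 9 a lower one (37.5%, against 11.9% of all genes tested), with a median interaction of -0.26. CDK6, one of the drug's targets, had 320.04, 335 and 278 CPM in parental and 303, 299 and 275 CPM in resistant A375, and 15.1, 14.5 and 12.2 CPM in parental and 36.9, 31.97 and 41.1 CPM in resistant CHL1. The A375 groups overlapped at high levels while every resistant CHL1 library lay above every parental one. The CDK6 change was -0.09 ± 0.09 in A375 and 1.39 ± 0.10 in CHL1, an interaction of -1.48 ± 0.14 (adjusted p = 3.6e-06), and the resistant CHL1 level remained far below that of either A375 group. CCNE1, cyclin E1, had 15.9, 19.2 and 17.7 CPM in parental and 29.8, 27.4 and 29.3 CPM in resistant A375, and 21.4, 21.7 and 20.96 CPM in parental and 62.9, 66.01 and 64.9 CPM in resistant CHL1. It rose without overlap in both lines, more in CHL1 (1.60 ± 0.07) than in A375 (0.71 ± 0.07), an interaction of -0.88 ± 0.10 (adjusted p = 1.7e-05), while its 20 neighbours on chromosome 19 had a median of 0.27.

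The CDK inhibitor genes differed between the lines in both directions. CDKN1C (p57) had 38.9, 26.5 and 22.8 CPM in parental and 9.45, 6.67 and 12.99 CPM in resistant A375, and 11.2, 9.87 and 12.5 CPM in parental and 14.9, 16.7 and 15.4 CPM in resistant CHL1. It fell without overlap in A375 and was higher in every resistant CHL1 library, though the CHL1 change of 0.48 was not called (adjusted p = 0.17), and the interaction was -2.09 ± 0.30 (adjusted p = 0.00015). CDKN2C (p18) rose in CHL1 with an interaction of -0.70 ± 0.10, and CDKN2D (p19) fell in A375 with -0.84 ± 0.13, beside a neighbour median of -0.47 on chromosome 19. CDKN1B (p27) was called at -0.29 ± 0.09 (adjusted p = 0.037), but not without parental A375 replicate 1, resistant A375 replicate 2 or 3, parental CHL1 replicate 2 or 3, or any 1 resistant CHL1 replicate (adjusted p from 0.0622 to 0.142). Its call was also lost with genes of either table (0.0565). RB1 fell in both lines, with log2 changes of -0.55 and -0.21, and its interaction of -0.33 ± 0.09 (adjusted p = 0.013) stood beside a median of -0.35 over its neighbours on chromosome 13. The RB1 relative RBL1 had -0.45 ± 0.09 (adjusted p = 0.0025) with a neighbour median of -0.03, and E2F5 had 0.67 ± 0.17 (adjusted p = 0.0099).

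Most other cell-cycle and lineage regulators examined did not pass the test. CDK4 had 207, 213 and 219 CPM in parental and 197, 194 and 192 CPM in resistant A375, and 225, 203 and 231 CPM in parental and 199, 202 and 196 CPM in resistant CHL1, an interaction of 0.01 ± 0.07 (adjusted p = 0.94). Interactions were -0.28 ± 0.12 for CCND1 (adjusted p = 0.097), -0.16 ± 0.19 for E2F1 (0.61), 0.08 ± 0.14 for CCNE2 (0.76) and 0.31 ± 0.24 for CDKN2A (0.41). They were 0.08 ± 0.07 for the arginine methyltransferase PRMT5 (0.48), 0.14 ± 0.14 for the p53 inhibitor MDM4 (0.53), -0.10 ± 0.18 for MITF (0.74), -0.41 ± 0.24 for SOX10 (0.26) and 0.38 ± 0.14 for the receptor AXL (0.075). AXL passed without parental A375 replicate 3 (adjusted p = 0.0026), with DESeq2 (0.0486) and where each line needed 1 CPM in 3 libraries (0.048), and CDKN2A passed without the same parental library (0.045). A p above the threshold does not show that the lines changed alike. CCND3 (-0.30 ± 0.10, adjusted p = 0.038) passed, but not without parental or resistant A375 replicate 2 or 3, any 1 parental CHL1 replicate, or resistant CHL1 replicate 2 or 3 (adjusted p from 0.0515 to 0.135). Its call was also lost with DESeq2 (0.0539), with RLE size factors (0.061) and with genes of either table (0.0625). The proliferation antigen MKI67 (-0.45 ± 0.16, adjusted p = 0.049) lies on chromosome 10 among neighbours with a median of -0.78, and lost its call in 9 of the 12 fits without 1 library, all except parental A375 replicate 2, resistant A375 replicate 1 and resistant CHL1 replicate 2 (adjusted p from 0.059 to 0.152). MKI67 also lost it with limma-voom (0.051), RLE size factors (0.0603), TMM within each line (0.0516) and genes of either table (0.0675). So it did where each line needed 1 CPM in 3 libraries (0.0612). Of all genes tested 11.7% were higher and 11.9% lower. Of 44 G1/S and replication genes 4 were higher and 3 lower, and of 45 G2/M genes 1 was higher and 6 lower. Outside the 5 shifted chromosomes the counts of these 2 lists were 0 and 3 of 36, and 1 and 3 of 38.

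Of the 10 genes that moved furthest in opposite directions 9 are described, with roles in prostaglandin synthesis, neural crest identity, the matrix, the cytoskeleton and redox defence. They were ranked by the smaller of their changes in the lines, so their directions are a description. PTGS2 (COX-2), the inducible enzyme of prostaglandin synthesis, had 0.988, 2.04 and 0.733 CPM in parental and 7.997, 23.7 and 11.4 CPM in resistant A375, and 6.16, 6.75 and 5.91 CPM in parental and 0.528, 0.688 and 0.98 CPM in resistant CHL1. It was higher in every resistant A375 library and lower in every resistant CHL1 library, 3.52 ± 0.40 against -3.08 ± 0.46, an interaction of 6.60 ± 0.60 (adjusted p = 3.2e-06). The order of the lines was exchanged: CHL1 had more PTGS2 before resistance and A375 after it.

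NGFR, the low-affinity receptor that marks neural crest-like melanoma cells, had 117, 134 and 91.9 CPM in parental and 15.9, 17.04 and 19.6 CPM in resistant A375, and 38.9, 32.8 and 35.7 CPM in parental and 67.97, 79.7 and 71.4 CPM in resistant CHL1. NGFR fell in A375 (-2.71 ± 0.13) and rose in CHL1 (1.03 ± 0.12) without overlap, an interaction of -3.74 ± 0.17 (adjusted p = 9e-09), and here too the order of the lines was exchanged.

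The secreted glutathione peroxidase GPX3 had 14.02, 12.3 and 16.6 CPM in parental and 4.93, 5.903 and 6.21 CPM in resistant A375, and 68.7, 65.2 and 61.5 CPM in parental and 126, 137 and 143 CPM in resistant CHL1. It fell in A375 and rose in CHL1 without overlap, an interaction of -2.39 ± 0.14 (adjusted p = 7.5e-08). LAMA2, a laminin chain of basement membranes, had 2.92, 2.56 and 4.55 CPM in parental and 0.979, 2.01 and 1.18 CPM in resistant A375, and 7.52, 6.75 and 7.59 CPM in parental and 19.6, 17.02 and 18.9 CPM in resistant CHL1. Its interaction was -2.60 ± 0.30 (adjusted p = 2.9e-05), and the matrix protein SPON2 (-3.83 ± 0.26) and the basal keratin KRT14 (-3.43 ± 0.32) moved in the same directions. LUM (lumican, a collagen-binding proteoglycan) had 5.47, 9.01 and 5.83 CPM in parental and 17.4, 23.997 and 19.3 CPM in resistant A375, and 18.1, 12.1 and 14.2 CPM in parental and 8.602, 6.699 and 6.896 CPM in resistant CHL1. It rose in A375 and fell in CHL1 (2.58 ± 0.27, adjusted p = 1.2e-05), as did the matrix protein gene ABI3BP (3.41 ± 0.33) and the microtubule-associated NCKAP5 (2.61 ± 0.15). ABI3BP lies on chromosome 3, where its neighbours had a median interaction of 0.44; neighbour medians of the other 8 lay between -0.13 and 0.19.

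**Figure D3:**
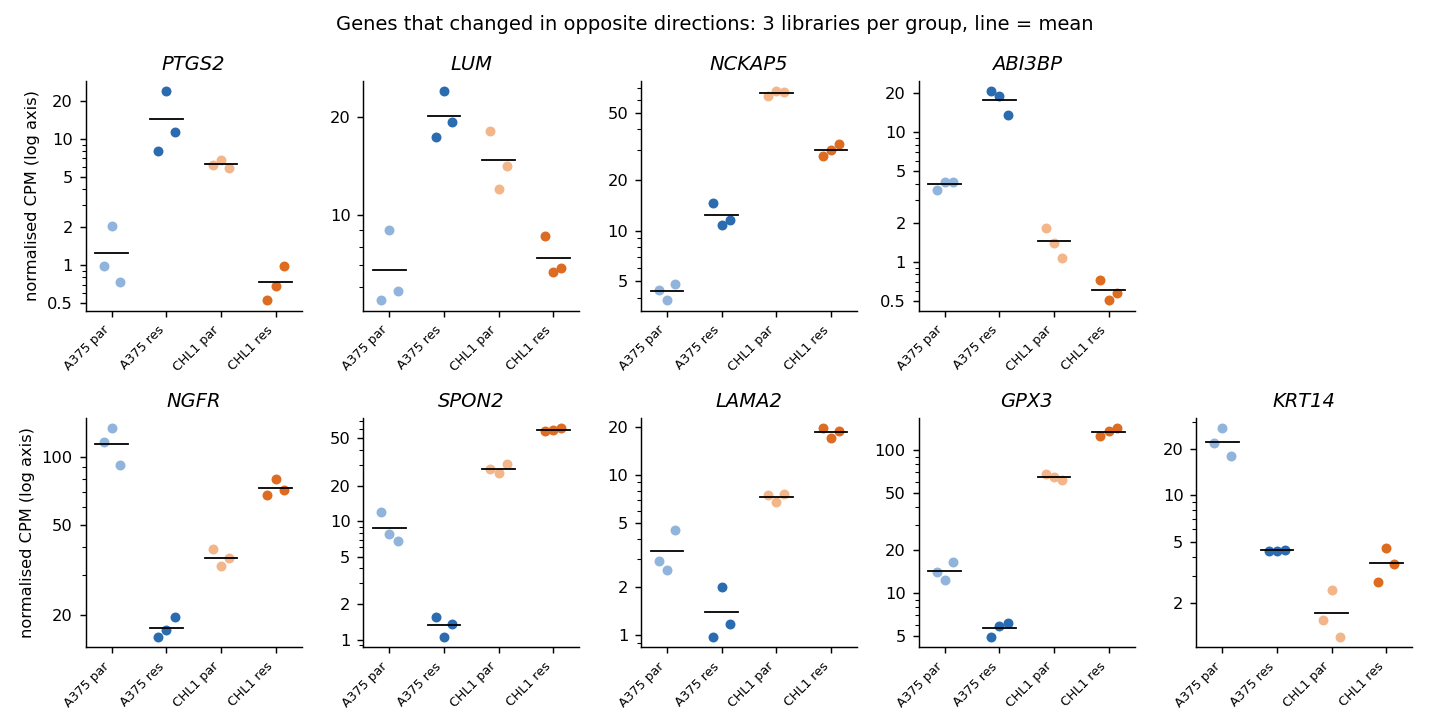
Normalised CPM on log axes in the 12 libraries for 9 genes among those changed in opposite directions, each point 1 library and each line the mean of 3 (par, parental; res, resistant). The upper 4 genes rose in A375 and fell in CHL1, and the lower 5 fell in A375 and rose in CHL1, with no overlap between parental and resistant libraries of a line.

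Further opposite changes appeared among the leading members of the gene lists. The gelatinase MMP2 changed by -0.49 in A375 and 1.19 in CHL1 (-1.68 ± 0.13, adjusted p = 6.1e-07), and the matricellular protein THBS1 by -1.16 in A375 and 0.88 in CHL1 (-2.04 ± 0.32, adjusted p = 0.00032). The lysosomal sulfatase IDS changed by -1.51 in A375 and 0.54 in CHL1 (-2.05 ± 0.08), beside a neighbour median of -0.93 on chromosome X. In the other direction, the fibronectin and vitronectin receptor chain ITGAV changed by 0.56 in A375 and -0.41 in CHL1 (0.97 ± 0.08, adjusted p = 1.8e-06), the latent TGF-beta binding protein LTBP1 by 1.33 in A375 and -0.49 in CHL1 (1.83 ± 0.14) and the ephrin receptor EPHA7 by 0.69 in A375 and -0.86 in CHL1 (1.55 ± 0.21). The Notch target HES1 changed by 0.83 in A375 and -0.81 in CHL1 (1.65 ± 0.23) and beta-catenin (CTNNB1) by 0.18 in A375 and -0.60 in CHL1 (0.78 ± 0.06), both on chromosome 3 with neighbour medians of 0.44 and 0.30. The related ETS factors ETV1 (0.89 in A375 and -0.33 in CHL1) and ETV4 (-0.26 in A375 and 0.25 in CHL1), outputs of the MAPK pathway, moved against each other, with interactions of 1.22 ± 0.09 and -0.52 ± 0.09.

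Among genes with at least 10 CPM in their highest group and 1 CPM in some group of each line, the 10 lowest interactions were all losses of a transcript in A375 that CHL1 kept. PXDN, peroxidasin, which crosslinks collagen IV, had 55.7, 37.2 and 71.2 CPM in parental and 0.979, 0.925 and 0.502 CPM in resistant A375, and 1445, 1424 and 1525 CPM in parental and 1432, 1611 and 1552 CPM in resistant CHL1. It fell without overlap in A375 (-6.07 ± 0.25) while the CHL1 groups overlapped at a far higher level, an interaction of -6.13 ± 0.30 (adjusted p = 1.5e-08). ITGB4, the integrin beta chain of hemidesmosomes, had 83.8, 45.4 and 105 CPM in parental and 4.72, 3.06 and 4.99 CPM in resistant A375, and 15.1, 17.03 and 22.6 CPM in parental and 20.9, 23.7 and 22.7 CPM in resistant CHL1, an interaction of -4.50 ± 0.37 (adjusted p = 1.3e-06). MBNL3, a muscleblind splicing regulator, fell from 923 to 5 counts over the 3 libraries in A375, a ratio of 201, 95% interval 85.97 to 622, and stood at 14.1, 13.6 and 14.4 CPM in parental and 16.1, 13.98 and 13.2 CPM in resistant CHL1. Its interaction was -7.60 ± 0.30 (adjusted p = 1e-09), the lowest of the 10, with a neighbour median of -0.95 on chromosome X.

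Where a group holds few counts the fitted value depends on the prior count of the fit, so the ratio of the normalised levels, higher over lower group, is given with its interval for counting error alone. AUTS2 fell from 213 to 5 counts in A375 (ratio 46.5, 95% interval 19.6 to 145) and the cadherin CDH4 from 129 to 6 (ratio 23.5, 95% interval 10.5 to 65.1). The glutathione peroxidase family member GPX7 had 149 and 1 counts (ratio 163, 95% interval 28.7 to 6462), the synaptic adhesion gene SLITRK2 210 and 3 (ratio 76.4, 95% interval 25.8 to 373) and BEX1 126 and 2 (ratio 68.7, 95% interval 18.6 to 574). In CHL1 all 5 were at group means of at least 8.56 CPM, and SLITRK2 rose there (0.59, adjusted p = 0.019). The cancer-testis antigen MAGEA10 (-6.02 ± 0.28) and the retrotransposon-derived RTL8B (-5.00 ± 0.15) complete the 10; both, like BEX1, belong to families with near-identical copies on chromosome X, so their counts are uncertain. By the list rule the Notch receptor NOTCH3 joined them: it had 17.2, 18.99 and 16.1 CPM in parental and 1.01, 1.63 and 1.47 CPM in resistant A375, and 83.6, 90.6 and 109.6 CPM in parental and 83.1, 98.5 and 93.9 CPM in resistant CHL1, an interaction of -3.62 ± 0.20 (adjusted p = 3.1e-08). S100A4, a calcium-binding protein of motile cells, had 167, 129.6 and 116 CPM in parental and 7.96, 10.9 and 8.76 CPM in resistant A375, and 2.94, 3.34 and 3.91 CPM in parental and 2.597, 2.64 and 3.41 CPM in resistant CHL1, an interaction of -3.67 ± 0.26 (adjusted p = 3.9e-07).

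Under the same limits the 10 highest interactions mixed gains in A375 with losses in CHL1. BMP7, a bone morphogenetic protein, had 1.71, 0.927 and 0.843 CPM in parental and 2.497, 1.91 and 2.51 CPM in resistant A375, and 16.9, 16.2 and 16.6 CPM in parental and 0.568, 0.797 and 0.508 CPM in resistant CHL1. Its CHL1 change of -4.71 ± 0.21 made most of an interaction of 5.71 ± 0.31 (adjusted p = 3.4e-08), and no groups overlapped. PPARG, the nuclear receptor of adipogenesis, had 82.8, 61.2 and 84.7 CPM in parental and 102, 91.6 and 102 CPM in resistant A375, and 26.8, 25.3 and 25.4 CPM in parental and 3.04, 2.46 and 3.81 CPM in resistant CHL1. PPARG fell in CHL1 by far more than it rose in A375 (0.37 in A375 and -3.06 in CHL1), an interaction of 3.42 ± 0.19 (adjusted p = 3.4e-08) beside a neighbour median of 0.31 on chromosome 3. VGF, a secreted neuropeptide precursor, had 78.1, 30.6 and 57.1 CPM in parental and 519, 257 and 437 CPM in resistant A375, and 10.3, 8.72 and 9.903 CPM in parental and 4.34, 4.31 and 4.65 CPM in resistant CHL1. Its CHL1 groups did not overlap either, but that change was not called (-1.12, adjusted p = 0.068), and the interaction was 3.99 ± 0.46 (adjusted p = 2.6e-05).

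The remaining high values were gains in A375 of genes already present in CHL1. The RNA-binding stem cell factor MSI1 went from 0.595 to 6.93 mean CPM in A375 and from 35.002 to 26.8 in CHL1 (3.92 ± 0.21, adjusted p = 2.7e-08). The adhesion protein gene TRO went from 2.01 to 17.6 and from 48.2 to 43.3 (3.28 ± 0.11, adjusted p = 2.2e-10). RCAN2, a calcineurin regulator, rose from 9 to 153 counts in A375 (ratio 15.6, 95% interval 7.998 to 34.7) and stood at 36.1 and 39.02 CPM in CHL1. SPRR2D, a cornified envelope gene with near-identical neighbours, had an interaction of 3.95 ± 0.36 that may share reads with them. By these values resistant A375 lay nearer to CHL1 in MSI1, TRO and RCAN2 than parental A375 did, and further from it in NOTCH3 and PXDN.

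Changes called in CHL1 and not in A375 were named after their values were seen, by the size of the interaction; 5 gains and 6 losses are given. Beside CDK6 the gains in CHL1 included OSMR, the oncostatin M receptor, with 55.3, 42.02 and 57.5 CPM in parental and 52.3, 41.4 and 43.8 CPM in resistant A375, and 21.1, 19.6 and 19.05 CPM in parental and 49.3, 49.3 and 43.3 CPM in resistant CHL1. The A375 groups overlapped and the CHL1 groups did not, an interaction of -1.42 ± 0.16 (adjusted p = 2.1e-05). FSTL1 had 28.5, 24.03 and 57.3 CPM in parental and 46.6, 56.2 and 37.04 CPM in resistant A375, and 13.7, 11.9 and 10.7 CPM in parental and 42.8, 43.9 and 35.5 CPM in resistant CHL1 (-1.40 ± 0.36, adjusted p = 0.01), against the fall of its neighbours on chromosome 3 in CHL1 (median -0.38). The melanoma marker S100B (-1.25 ± 0.31) and the latent TGF-beta binding protein LTBP2 (-1.23 ± 0.24) also rose in CHL1 and were not called in A375.

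Among the losses in CHL1, BMP2 had 10.8, 11.98 and 13.2 CPM in parental and 7.76, 8.04 and 11.6 CPM in resistant A375, and 13.2, 11.4 and 10.8 CPM in parental and 1.95, 2.72 and 3.303 CPM in resistant CHL1. It fell without overlap in CHL1 (-2.15 ± 0.19) and was not called in A375 (-0.40 ± 0.16, adjusted p = 0.081), an interaction of 1.75 ± 0.25 (adjusted p = 0.00015). The sorting nexin SNX10 (1.73 ± 0.38), the membrane raft protein gene RFTN1 (2.00 ± 0.46), SEC14L4 (1.54 ± 0.18), ANGPTL2 (1.53 ± 0.17) and the polarity gene PARD3B (1.32 ± 0.18) fell likewise in CHL1. RFTN1 had only 85 and 21 counts in parental and resistant CHL1, a ratio of 4.01, 95% interval 2.47 to 6.81. BMP2 and BMP7 both fell in resistant CHL1. Of all genes tested 11.7% were higher and 11.9% lower by the interaction. Of 29 TGF-beta and BMP genes 7 were higher and 2 lower, with a median of 0.23. The lower members were LTBP2 and ID4 (-1.69 ± 0.26), an inhibitor of bHLH factors and a BMP target.

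Where both lines moved the same way by unequal amounts, the larger change was in CHL1 for TP73 and TRPV4. TP73, a relative of p53, had 16.5, 14.98 and 13.7 CPM in parental and 9.58, 8.33 and 8.61 CPM in resistant A375, and 6.69, 5.68 and 6.47 CPM in parental and 0.568, 0.435 and 0.472 CPM in resistant CHL1. It fell without overlap in both lines, -0.77 ± 0.10 in A375 and -3.67 ± 0.17 in CHL1, an interaction of 2.90 ± 0.20 (adjusted p = 3.2e-07). The calcium channel TRPV4 had 32.4, 24.1 and 22.1 CPM in parental and 13.7, 10.6 and 17.2 CPM in resistant A375, and 9.702, 10.6 and 9.98 CPM in parental and 0.893, 1.12 and 0.726 CPM in resistant CHL1 (2.53 ± 0.30, adjusted p = 3.5e-05). A375 fell further in the junction-associated AJAP1 (-3.23 in A375 and -0.72 in CHL1) and the axonemal dynein DNAH2 (-3.98 in A375 and -1.07 in CHL1), with interactions of -2.52 ± 0.24 and -2.91 ± 0.33. COL22A1, a collagen of tissue junctions, rose from 4 to 306 counts in A375 (ratio 70.1, 95% interval 27.1 to 259) and by 0.49 in CHL1, where it stood at 30.3, 28.02 and 30.7 CPM in parental and 42.1, 42.2 and 40.6 CPM in resistant CHL1. EMC10, a subunit of the endoplasmic reticulum membrane complex chosen after its values were seen, had 44.4, 43.4 and 41.6 CPM in parental and 0.675, 0.638 and 0.61 CPM in resistant A375, and 27.3, 25.3 and 30.3 CPM in parental and 0.73, 1.19 and 0.799 CPM in resistant CHL1. It was nearly lost in both derivatives, -6.06 ± 0.13 and -4.91 ± 0.13, and even so differed between them by -1.15 ± 0.24 (adjusted p = 0.0026).

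Some of the largest values came from genes that only 1 line used, named after their values were seen. UTS2, the urotensin peptide gene, had 12.5, 14.4 and 13.4 CPM in parental and 0, 0.0362 and 0.0726 CPM in resistant CHL1, or 1072 and 3 counts, a ratio of 354, 95% interval 121 to 1720.4, and at most 0.405 CPM in any A375 library (8.75 ± 0.59, adjusted p = 2.7e-07). The long non-coding RNA UCA1 had 39.7, 50.1 and 75.3 CPM in parental and 0.169, 0.16 and 0.179 CPM in resistant A375, a ratio of 324, 95% interval 196 to 579, and at most 0.162 CPM in CHL1 (-8.52 ± 1.69, adjusted p = 0.0019). ARHGAP4, a GTPase-activating protein, had 41.5, 36.6 and 40.5 CPM in parental and 0.742, 0.83 and 0.467 CPM in resistant A375, and 0.358, 0.371 and 0.479 CPM in parental and 0.406, 0.688 and 0.69 CPM in resistant CHL1 (-6.42 ± 0.36, adjusted p = 4.4e-08), with a neighbour median of -1.08 on chromosome X. In these genes the interaction was nearly the change of the line that used the gene, and its size rests on the few counts of the other.

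Counts over gene lists are given beside the share of all genes tested that were higher (11.7%) or lower (11.9%), as a description and without a test of the lists. For counts outside the 5 shifted chromosomes, 1083 of 9161 protein-coding genes there with at least 1 CPM in each line were higher and 1271 lower. Lysosomal and stress lists had more lower than higher members. Of 45 lysosomal genes 19 were lower (42.2%) and 8 higher (17.8%), with a median interaction of -0.16, and outside the shifted chromosomes 14 of 35 were lower and 7 higher. The cathepsin CTSK changed by -3.01 in A375 and -0.27 in CHL1 (-2.74 ± 0.34, adjusted p = 4.5e-05), and the cathepsin CTSD, which rose in CHL1, by -0.15 in A375 and 0.67 in CHL1 (-0.82 ± 0.09). TFEB, a transcription factor of lysosomal genes, had -1.14 ± 0.24 (adjusted p = 0.003), and the membrane receptor SCARB2 -0.67 ± 0.08. ATP6AP1 (-1.07 ± 0.08) sat among chromosome X neighbours with a median of -1.10. Higher members included the cathepsin CTSS (1.18 ± 0.31).

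Of 31 ATF4 and amino acid stress genes 10 were lower (32.3%) and 2 higher (6.45%), with a median of -0.27. ATF4 itself had 306, 325 and 317 CPM in parental and 238, 247 and 236 CPM in resistant A375, and 901, 794 and 789.5 CPM in parental and 861, 799.6 and 746 CPM in resistant CHL1. It fell without overlap in A375 while the CHL1 groups overlapped (-0.35 ± 0.09, adjusted p = 0.0089), and asparagine synthetase ASNS followed (-0.37 ± 0.09, adjusted p = 0.0069). The higher members were SESN2 (0.50 ± 0.10), also a p53 target, and ATF5 (0.44 ± 0.10), with a neighbour median of 0.48 on chromosome 19. The count of 10 fell to 5 without resistant A375 replicate 3, to 6 without parental CHL1 replicate 2 and to 5 without parental CHL1 replicate 3. Of 25 ER chaperone and unfolded protein response genes 8 were lower and 2 higher (median -0.13), and the 8 fell to between 3 and 5 without parental A375 replicate 1 or 2, any 1 resistant A375 replicate, parental CHL1 replicate 2 or 3, or resistant CHL1 replicate 2. SYVN1 (-0.83 ± 0.10), the ubiquitin ligase of ER-associated degradation, led them and has chromosome 11 neighbours at a median of -0.68.

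Splicing and integrin lists had more higher than lower members. Of 37 spliceosome core genes 12 were higher (32.4%) and 1 lower (2.7%), with small values (median 0.11), and outside the shifted chromosomes 8 of 28 were higher and 0 lower. The 12 fell to 7 with no filter on low counts. The snRNP protein SNRPB2 had 0.62 ± 0.13 and SF3B3 0.30 ± 0.08, while LSM4 (-0.59 ± 0.08) on chromosome 19 was the lower member. Of 21 integrin genes 7 were higher (33.3%) and 2 lower (9.52%), the lower ones ITGB4 and its partner ITGA6 (-0.91 ± 0.11). The collagen receptor chains ITGA1 (1.41 in A375 and -0.20 in CHL1) and ITGA10 (1.20 in A375 and -0.04 in CHL1), the fibronectin receptor chain ITGA4 (0.89 in A375 and -0.35 in CHL1) and the laminin receptor chain ITGA7 (1.23 in A375 and -0.34 in CHL1) were called in A375 and not in CHL1, where their values were below 0. Of 22 inflammatory cytokine genes 5 were higher (22.7%) and 1 lower (4.55%), with a median of 0.41. The 5 fell to 2 without parental A375 replicate 1, to 3 without resistant A375 replicate 1 or any 1 of the 6 CHL1 libraries, and to 2 with limma-voom or where each line needed 1 CPM in 3 libraries. Beside PTGS2 they included the chemokine CXCL12, with 309, 305 and 305 CPM in parental and 135, 144 and 156 CPM in resistant CHL1 and 7 and 13 counts in the A375 groups. Its call (adjusted p = 0.027) was lost without parental A375 replicate 1 (adjusted p = 0.104) or resistant A375 replicate 1 (0.164) or 3 (0.094). The CXCL12 call was also lost with limma-voom (0.0545). The lower member was LIF (-0.83 ± 0.21, adjusted p = 0.0093).

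Matrix genes were called in both directions, 13 of 59 higher (22%) and 11 lower (18.6%). COL6A2 had 51.97, 39.5 and 52.8 CPM in parental and 137, 141 and 159.7 CPM in resistant A375, and 75.4, 71.7 and 78.3 CPM in parental and 65.7, 82.05 and 71.5 CPM in resistant CHL1 (1.64 ± 0.15, adjusted p = 2.5e-06). The collagen VI partner COL6A3 (1.99 ± 0.26), fibrillin FBN2 (2.74 ± 0.23) and COL5A2 (0.84 ± 0.09) also rose more in A375. COL5A1 fell in both lines, less in A375 (-1.07 in A375 and -1.83 in CHL1), so its interaction was positive (0.76 ± 0.19), whereas COL5A3 (-2.31 ± 0.53) fell in A375 and was not called in CHL1. The aggrecanase ADAMTS5 rose in A375 (3.09 ± 0.31) and was not called in CHL1 (-1.24 ± 0.52), an interaction of 4.33 ± 0.61 (adjusted p = 0.00013). It had only 43 and 18 counts in parental and resistant CHL1 (ratio 2.37, 95% interval 1.34 to 4.36). Apoptosis regulators were called in 14 of 26 (53.8%, against 23.6% of all genes tested), with 8 higher and 6 lower. The higher ones were BAX, BBC3, the BH3 proteins BMF (1.24 ± 0.24) and PMAIP1 (NOXA, 0.78 ± 0.15), and genes that restrain apoptosis. The latter were BIRC3 (2.27 ± 0.50), BIRC2 (0.49 ± 0.16), BCL2 (0.49 ± 0.13) and MCL1 (0.31 ± 0.06). The lower ones were led by BAD (-1.19 ± 0.14) and XIAP (-0.70 ± 0.08), whose neighbours on chromosomes 11 and X had medians of -0.81 and -0.55.

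Markers of other cell types were measured as a check on the cultures. The summed level of 9 tested fibroblast markers was 77.8 to 104 CPM in parental and 129 to 154 CPM in resistant A375, and 17.4 to 23.5 CPM in parental and 11.8 to 14.2 CPM in resistant CHL1, so it moved with the matrix gains in A375. MEOX2, which reached 108 CPM, made most of it there. Of these, LUM was higher and PDGFRB lower by the interaction (-1.39 ± 0.31); the other 7, among them COL1A1 (0.20 ± 0.43, adjusted p = 0.79) and DCN (-0.39 ± 0.52, adjusted p = 0.65), were not called. Within A375 the collagen chain COL1A2 (5.16 ± 0.30), the fibroblast activation protein FAP (3.46 ± 0.27), COL3A1 (2.06 ± 0.36) and MEOX2 (0.52) nevertheless rose. Their interaction adjusted p-values were 0.13, 0.091, 0.46 and 0.69. The part of such cells in the result was not tested. Of 4 leukocyte and 5 endothelial markers tested 0 were called. Among leukocyte markers CD68 reached 76.5 CPM and PTPRC 9.70 CPM, while CD3E had 1 count over all 12 libraries. The leukocyte marker LYZ fell within A375 (-1.32 ± 0.18), and the endothelial marker EGFL7 rose within CHL1 (0.40 ± 0.08). Their interaction adjusted p-values were 0.118 and 0.271. Of 11 keratinocyte and epithelial markers 2, KRT10 and KRT8, were higher and 1, KRT14, lower. KRT8 (0.62 ± 0.21, adjusted p = 0.0498) lost its call without replicate 1 or 2 of any of the 4 groups (adjusted p 0.0728 to 0.133). It was not called with limma-voom (0.12) or with no filter on low counts (0.0509) either. Within A375 KRT7 (-2.16 ± 0.21), CDH3 (-1.56 ± 0.28), KRT5 and SFN fell along with KRT14, and KRT18 rose (0.38 ± 0.08). The interactions of the 5 other than KRT14 were not called (adjusted p 0.146 to 0.952), and their part in the result was not tested.

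Of 46 axon guidance genes 12 were higher and 8 lower. SLIT2, a repulsive guidance ligand, had 11.4, 14.2 and 7.73 CPM in parental and 46.8, 38.7 and 32.1 CPM in resistant A375, and 17.9, 17.6 and 17.7 CPM in parental and 16.7, 15.97 and 19.96 CPM in resistant CHL1. It rose without overlap in A375 while the CHL1 groups overlapped (1.83 ± 0.24, adjusted p = 8.6e-05), and the semaphorin SEMA7A fell in A375 (-1.47 ± 0.18, adjusted p = 5.1e-05). Of 29 WNT genes 8 were higher and 7 lower. The WNT antagonists NKD2 and NKD1 were both higher, NKD2 through A375 (1.68 in A375 and -0.09 in CHL1) and NKD1 through CHL1 (0.13 in A375 and -1.79 in CHL1), and the transcription factor TCF7L1 had 1.58 ± 0.19. LGR6, an R-spondin receptor, fell in A375 from 380 to 16 counts (ratio 25.9, 95% interval 15.7 to 45.8). Receptor tyrosine kinases (5 of 38 higher, 7 lower) included DDR1 (-0.76 ± 0.10) and EPHA7 on opposite sides.

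Genes of the melanoma states were called in both directions. Of 22 MITF and pigment genes 4 were higher and 3 lower, and of 28 dedifferentiation genes 7 were higher and 3 lower. The higher pigment-list genes were TYRP1, DCT, GPM6B and APOE. The lower ones were MREG (-0.55 ± 0.12), RAB27A (-0.52 ± 0.11) and TFAP2A (-0.52 ± 0.17). MITF (-0.48), MC1R (-0.78) and OCA2 (-0.67) fell within A375, though their interactions were not called. The melanin enzyme DCT had 41.5, 46.8 and 45.5 CPM in parental and 19.2, 19.6 and 18.7 CPM in resistant CHL1 and 7 and 35 counts in parental and resistant A375, a ratio of 4.58, 95% interval 2.01 to 12.2, and an interaction of 3.34 ± 0.46 (adjusted p = 0.00011). TYRP1 rose from 17 to 155 counts in A375 (ratio 8.36, 95% interval 5.05 to 14.7) and had group means of 1.21 and 1.26 CPM in CHL1. The mesenchymal regulator SNAI2 had 0.608, 0.631 and 0.623 CPM in parental and 2.16, 1.98 and 3.19 CPM in resistant A375, and 13.2, 13.4 and 12.8 CPM in parental and 12.98, 12.3 and 11.9 CPM in resistant CHL1 (2.04 ± 0.24, adjusted p = 2.7e-05), and the cadherin CDH2 rose in both lines, more in A375 (1.09 in A375 and 0.19 in CHL1). NGFR and S100A4 went the other way, so the dedifferentiation list held both falls and rises in A375. Of 50 interferon response genes 7 were higher and 10 lower. OAS1 and OAS3, sensors of double-stranded RNA, fell further in CHL1 (-0.68 in A375 and -1.59 in CHL1 for OAS1, -0.44 in A375 and -1.08 in CHL1 for OAS3), while HERC5 (-1.52 ± 0.27) and IFI35 (-0.91 ± 0.12) fell in A375 and were not called in CHL1. Of 22 MHC class I genes 3 were lower and 0 higher, near the share over all genes.

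**Figure D4:**
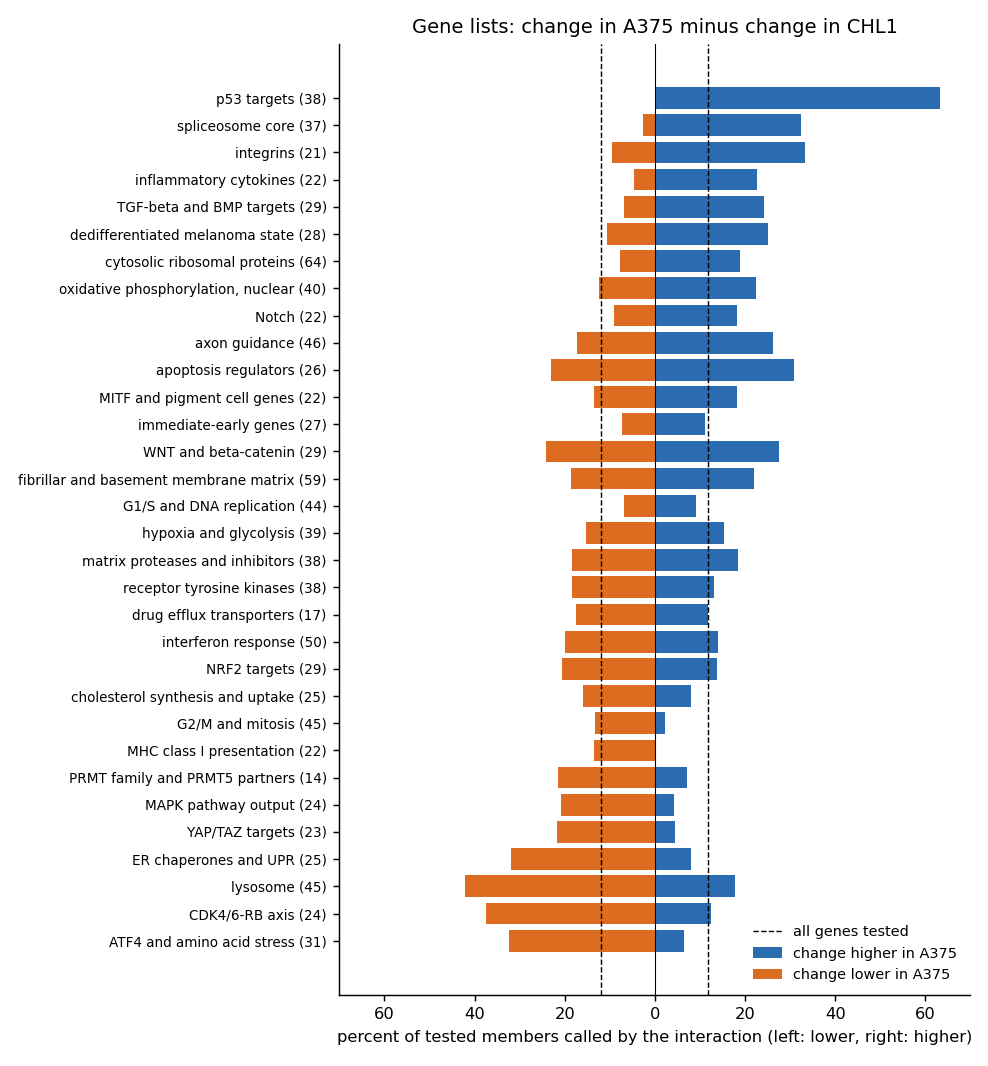
Percent of the tested members of 32 gene lists called by the interaction, to the right where the change was higher in A375 and to the left where it was lower; numbers in parentheses are members tested and dashed lines give the shares over all genes (11.7% and 11.9%). The p53 targets reach 63.2% on the right with none on the left, and lysosomal genes reach 42.2% on the left.

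Neighbouring genes shared their interaction along long stretches of 5 chromosomes, those with the highest share of genes called. Over protein-coding genes of at least 1 CPM on chromosomes 3, 10, 13, 19 and X, 1364 of 2543 were called (53.6%), against 2354 of 9161 (25.7%) on the others and 31.8% over all of them. Shifts were not limited to these 5: on chromosome 11 153 of 669 genes were lower and 47 higher, and on chromosome 16 96 of 532 were lower and 16 higher. Counts outside the 5 still hold such genes. Chromosome 3 shifted in CHL1: its 655 genes had a median change of -0.34 in CHL1 and -0.02 in A375, and 320 were higher by the interaction against 23 lower. The other 4 shifted in A375. On chromosome 13 the median of 207 genes was -0.42 in A375 and -0.10 in CHL1, and 104 were lower against 10 higher. On chromosome 10 203 of 444 genes were lower and 29 higher, and running medians of 21 genes fell to -0.84 around PCGF6. Chromosome 19 held both directions, with running medians from -0.60 around NR2F6 to 1.02 around ZNF841, and 326 genes higher and 159 lower out of 847. On chromosome X the running median fell to -1.11 around IRAK1, with 141 of 390 genes lower and 49 higher.

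Ribosomal protein genes were called mainly on these chromosomes. Of 64 tested, 12 were higher and 5 lower, but off the 5 chromosomes 0 of 42 were higher and 1 was lower. RPL10 on chromosome X had 242, 237 and 234 CPM in parental and 117, 126 and 119 CPM in resistant A375, and 189, 189 and 199 CPM in parental and 207, 205 and 197 CPM in resistant CHL1, an interaction of -1.06 ± 0.06 beside a neighbour median of -1.10. Genes of other lists also lay near the median of their neighbours: LIG1, the replicative DNA ligase (0.83 ± 0.08 beside 0.59), PRMT1 (0.73 ± 0.07 beside 0.46) and the mitotic kinesin KIF11 (-0.58 ± 0.10 beside -0.70). DNA copy number was not measured in these libraries, and its part in these stretches was not tested. Values far from those of their neighbours included PTGS2 (6.60 beside 0.19), CYFIP2 (2.04 beside -0.02), CDK6 (-1.48 beside 0.10), NGFR (-3.74 beside 0.09) and, against the direction of theirs, CCNE1 (-0.88 beside 0.27).

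**Figure D5:**
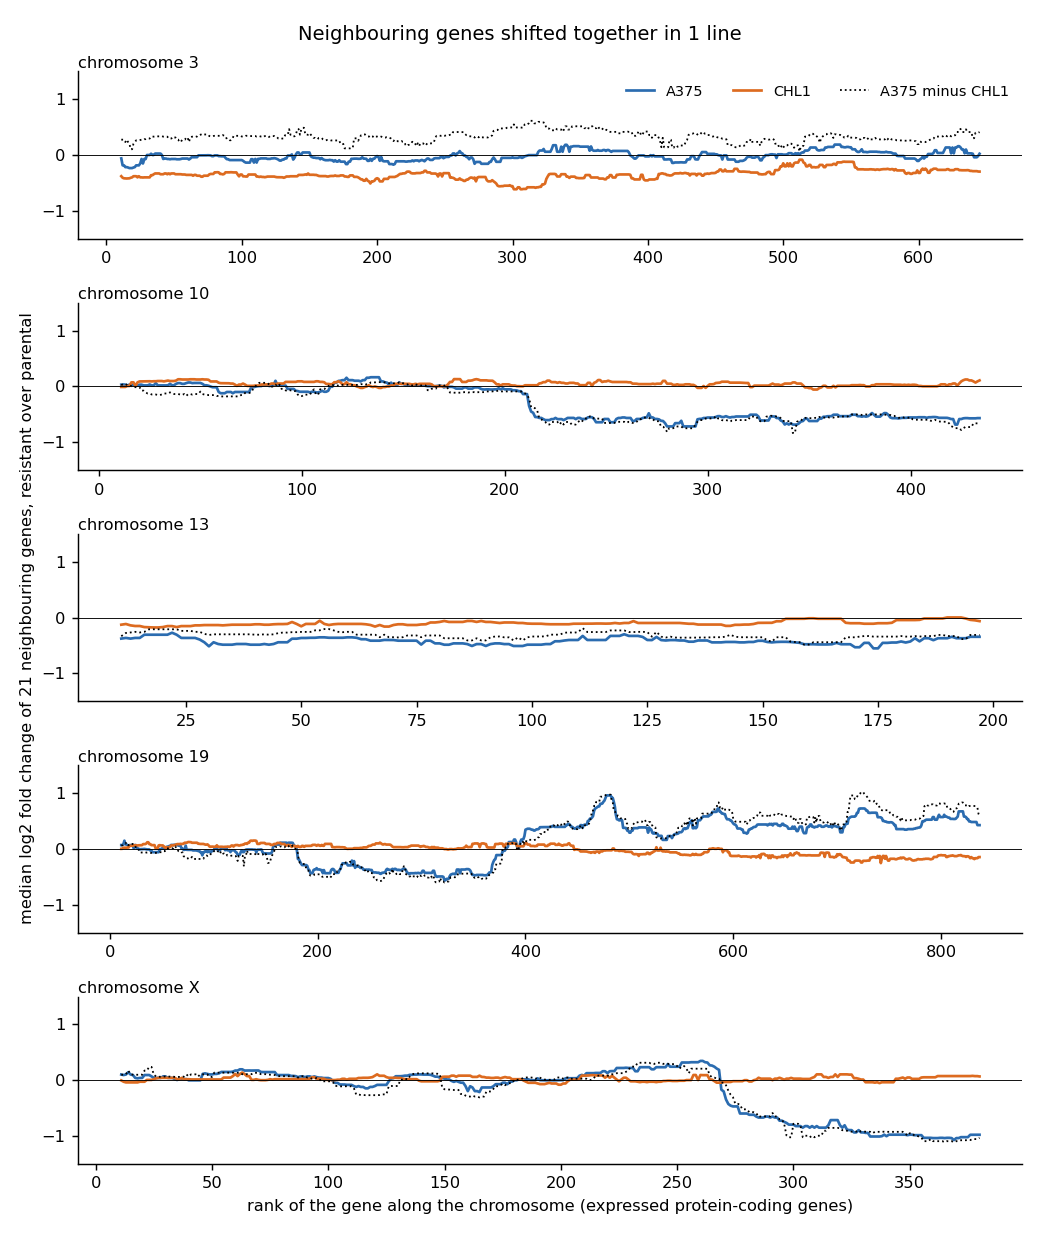
Running median over 21 neighbouring protein-coding genes of the log2 fold change, resistant over parental, in A375 (blue) and CHL1 (orange), and of their difference, the interaction (dotted), by gene rank along chromosomes 3, 10, 13, 19 and X. CHL1 lies below 0 along chromosome 3, whereas on the other chromosomes the A375 line moves, to below 0 along 13 and the later genes of 10 and X, and both ways along 19.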

How the data were processed

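Total RNA from 12 libraries (3 per group, TruSeq RNA v2, which does not mark strand) was sequenced, and the authors deposited raw counts per Ensembl gene in 1 table per line. Tools listed in the submitters' processing notes, with no roles, are TopHat2, HTSeq 0.5, cutadapt 1.7, limma and CASAVA 1.8.2. Which genome build and annotation were used is not given in those notes. Each table lists only genes with a count in its line: 33932 in A375 and 32478 in CHL1, joined on the 29735 in both. Genes in 1 table only held 0.0549% (A375) and 0.0182% (CHL1) of counts.

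Counts were fitted in edgeR 4.0.16 (R 4.3.3; TMM, expression filter at a minimum count of 10, quasi-likelihood F-test) with 1 coefficient per group over all 12 libraries, and p-values were adjusted by Benjamini and Hochberg over the 19241 genes tested. The SE is the log2 value over the root of F. Symbols, strands and gene order came from GENCODE 29. Neighbour medians used the 20 nearest protein-coding genes of at least 1 CPM. The code was tested on simulated data. Depth limits low counts, for which 95% intervals cover counting error only.

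The comparison, the 36 gene lists and the panel of 18 genes were chosen with earlier results of these data known. Genes were named by rule: the 10 highest and 10 lowest interactions, the 10 opposite and 5 same-direction changes that were largest, the panel, and up to 3 members per list with the smallest adjusted p. Other names were chosen after their values were seen. Some named genes are not reported here. Alternatives were other size factors, filters and gene sets, DESeq2 1.42.0, limma-voom 3.58.1, replicate blocks and leaving out each library.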

Additional observations from a re-analysis of the deposited data

Results flagged for a closer look

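The values here were singled out because the change with resistance differed between the lines by the interaction test itself. That test called 4536 genes, and 475 of them changed in opposite directions, each direction called within its line. For the 9 opposite genes described above, every resistant library of a line lay on one side of its parental libraries and every resistant library of the other line on the opposite side. These genes were chosen for large called changes of opposite sign in both lines. The separation of their libraries largely follows from that choice and is a description only. The interaction was 6.60 for PTGS2, 3.41 for ABI3BP, 2.61 for NCKAP5 and 2.58 for LUM, which rose in A375 and fell in CHL1. It was -3.83 for SPON2, -3.74 for NGFR, -3.43 for KRT14, -2.60 for LAMA2 and -2.39 for GPX3, which fell in A375 and rose in CHL1. KRT14 has near-identical family members, so its counts may hold reads of another keratin.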

How the results depend on the processing

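Over 21 alternatives the interaction count ran from 3760 to 5364, from 3760 to 4519 with 1 library left out, and the genes shared with the 4536 (80.7% to 99.8% of them) all kept their direction. Calls of at least 2-fold numbered 770 when each line needed 1 CPM in 3 libraries, a filter that tests fewer genes. With 1 library left out, CHL1 calls ran from 1644 to 2780, opposite-direction calls from 303 to 515, lower ATF4 genes from 5 to 12 and lower ER chaperone and unfolded protein response genes from 3 to 7, and higher cytokine genes from 2 to 7; these were 2 with limma-voom and 2 with that filter. Those ER genes numbered 5 with RLE size factors and 5 with genes of either table, and higher spliceosome genes 7 with no low-count filter; the cause was not tested. Higher p53 targets stayed between 21 and 26, lower lysosomal genes between 16 and 20 and lower CDK4/6-RB genes between 7 and 10. Of 5026 values of named genes under the alternatives 4807 kept their call, 212 lost it, 7 gained it and 0 reversed, and 36 genes had any change of call. Replicate numbers did not pair the samples throughout. Same-numbered deviations correlated from -0.0158 to 0.214 within lines and from -0.0571 to 0.0407 across them. Of the 6 pairs within lines 2 were over 0.1, both in A375: replicate 1 (0.208) and replicate 2 (0.214). A replicate block within each line gave 5364 interaction and 746 opposite-direction calls and called SOX10 (adjusted p = 0.0437), and a block shared by both lines 4659 interaction calls. Genes with few counts in 1 line are limited by depth.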

Other observations

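Metabolic and signalling lists not described above were called in both directions, and no test of the lists was made. Of 40 nuclear genes of oxidative phosphorylation 9 were higher and 5 lower, the latter including the complex IV gene COX8A (-0.76 ± 0.07, neighbour median -0.79). Of 39 hypoxia and glycolysis genes 6 were higher and 6 lower, among the lower ones the mitophagy receptor BNIP3 (-0.91 ± 0.07), the aldolase ALDOA (-0.74 ± 0.08) and the angiogenic factor VEGFA (-0.62 ± 0.13). BNIP3 lies on chromosome 10 beside a neighbour median of -0.64. Of 29 NRF2 targets 4 were higher and 6 lower: the thioredoxin reductase TXNRD1 changed by 0.43 in A375 and -0.27 in CHL1 and the glutathione synthesis enzyme GCLC by 0.05 in A375 and 0.51 in CHL1. Of 25 cholesterol genes 2 were higher and 4 lower, the lowest being TM7SF2. Of 17 drug efflux transporters 2 were higher and 3 lower, with ABCC6 at 1.30 ± 0.28 and ABCC2 at -1.23 ± 0.24. TM7SF2 lies on chromosome 11, where 153 of 669 genes were lower and 47 higher. ABCC2 lies on chromosome 10, where 203 of 444 were lower and 29 higher.

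Of 24 MAPK output genes 1 was higher and 5 lower, including the phosphatase DUSP5 (-0.83 ± 0.15), and of 23 YAP/TAZ targets 1 was higher and 5 lower, including the membrane protein MYOF (-1.80 ± 0.23). DUSP5 and MYOF lie on chromosome 10, where 203 of 444 genes were lower and 29 higher. Of 27 immediate-early genes 3 were higher and 2 lower, and of 22 Notch genes 4 were higher and 2 lower. Matrix proteases and inhibitors had 7 of 38 higher and 7 lower. The list of arginine methyltransferases and PRMT5 partners had 1 of 14 higher and 3 lower, the lower ones being PRMT2, CARM1 and MTAP. DTX1, a Notch pathway ubiquitin ligase, changed by 1.44 in A375 and -0.13 in CHL1 (1.57 ± 0.27). The receptor kinase MST1R changed by -2.07 in A375 and 0.27 in CHL1 (-2.35 ± 0.51), and the guidance gene SEMA6D by 2.00 in A375 and -0.40 in CHL1 (2.40 ± 0.59). MST1R had only 14 and 17 counts in parental and resistant CHL1 (ratio 1.22, 95% interval 0.568 to 2.68). SEMA6D had 17 and 76 counts in parental and resistant A375 (ratio 4.10, 95% interval 2.40 to 7.40).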
